A study of Homo sapiens with 6 samples.

Results

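NEAT1, MALAT1, KCNQ1OT1, MIAT, MIR17HG, SNHG14 and DLEU2, all long non-coding RNAs (lncRNAs) with known nuclear roles, and SFPQ, NONO and PSPC1, which encode the core proteins of paraspeckles, were followed in Jurkat cells exposed to bisphenol AF (BPAF). These 10 genes were taken by symbol from the 60664 Ensembl identifiers of the deposited tables, and each symbol matched 1 identifier. The genes were chosen by name after the log2 fold changes and calls of this same comparison had been seen, although no threshold on a value enters the choice. Their differences between the groups are therefore given as a description and support nothing, and no p-value is printed for them. Jurkat is an established T-cell leukemia line of human origin, labelled wild type. In 3 libraries the cells had received the vehicle dimethyl sulfoxide (DMSO, 0.1%), and in 3 libraries they had received 1 µM BPAF, a fluorinated analogue of bisphenol A. The treatment labels and the design text give an exposure of 12 h, whereas the treatment protocol gives 24 h, so the time is uncertain.

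Many lncRNAs act without leaving the nucleus. NEAT1 is the scaffold of paraspeckles, nuclear bodies that assemble on its long isoform as that RNA is made and that hold SFPQ, NONO and PSPC1, a family of related RNA-binding proteins. Its gene lies next to that of MALAT1, an abundant RNA of nuclear speckles, the bodies enriched in splicing factors. KCNQ1OT1 is transcribed from 1 parental allele through the KCNQ1 gene and silences neighbouring imprinted genes, and SNHG14 is an imprinted host of small nucleolar RNAs whose transcript runs antisense to UBE3A. MIR17HG and DLEU2 are hosts of microRNA clusters, and MIAT is a spliced nuclear RNA that binds splicing factors.

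The libraries were made from RNA selected with oligo(dT) beads, so the 3′ ends of these RNAs bear on what was counted. MALAT1 and the long isoform of NEAT1 are known to lack a regular poly(A) tail: their ends are cut by an enzyme that processes transfer RNAs, and U-rich motifs fold onto an A-rich tract to protect the end. Both ends are shown here from GENCODE release 29 (GRCh38, plus strand), with the U-rich motifs and the A-rich tract in capitals. The MALAT1 stretch is chr11:65506029-65506116, inside the transcript MALAT1-202 of 8708 bases, and the NEAT1 stretch is chr11:65445453-65445540, the last 88 bases of NEAT1-202, which has 22743 bases.
MALAT1 end: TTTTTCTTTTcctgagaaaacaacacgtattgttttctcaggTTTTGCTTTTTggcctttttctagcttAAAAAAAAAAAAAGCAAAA
NEAT1 end: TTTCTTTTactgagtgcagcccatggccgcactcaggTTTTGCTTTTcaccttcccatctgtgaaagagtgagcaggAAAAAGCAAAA
The A-rich tract of MALAT1 opens with its longest run of A, 13 bases, and that of NEAT1 with a run that is shorter.

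Longer runs of A stood inside other members. The longest annotated transcript of KCNQ1OT1 held a run of 29 A, that of MIAT 24 and that of NEAT1 22. They are shown with 20 bases on each side and the run in capitals (GRCh38 reference, in the sense of each transcript).
KCNQ1OT1, chr11:2610697-2610765, minus strand: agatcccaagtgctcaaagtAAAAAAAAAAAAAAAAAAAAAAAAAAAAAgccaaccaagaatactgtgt
MIAT, chr22:26670583-26670646, plus strand: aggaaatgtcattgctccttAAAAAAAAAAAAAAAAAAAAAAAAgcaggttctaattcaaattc
NEAT1, chr11:65440823-65440884, plus strand: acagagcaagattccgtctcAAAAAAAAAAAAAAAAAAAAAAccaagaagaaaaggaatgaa
The KCNQ1OT1 stretch covers bases 89230 to 89298 of a transcript of 91667, near its 3′ end. A run of at least 20 A was present in the longest transcript of 1.29% of 14795 annotated lncRNA genes, and of 38.0% of the 71 whose longest transcript had at least 8000 bases. The other 7 members had longest runs of 7 to 13 A. Whether such runs were captured by the beads was not tested.

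Library totals were 20253656 to 22617613 counts and overlapped between groups (two-sided exact permutation p = 0.9). All 12 T-cell markers examined, among them CD3E, LCK and ZAP70, were above 1 CPM (the count scaled to a common library size, here with TMM factors) in each library, with a summed level of 3621 to 3693 CPM in DMSO and 3496 to 3672 in BPAF. Of 23 markers of B, myeloid, erythroid, epithelial and fibroblast cells, 17 stayed under 1 CPM in each library. MS4A1, CD14, EPCAM and DCN, defining markers of B, myeloid, epithelial and fibroblast cells, were at or near 0. Those above 1 CPM were CD79A of B cells (11.7 to 15.1 CPM), the erythroid globins HBA1 (8.58 to 11.3), HBA2 (4.67 to 8.44) and HBB (5.15 to 6.54), and COL1A1 of fibroblasts (2.36 to 3.01), while KRT8 of epithelial cells reached 1.00 CPM. Their part in the members' differences was not tested. The share of counts from lncRNA genes outside the members was 1.48 ± 0.00560% in DMSO and 1.63 ± 0.0375% in BPAF (SD, n = 3), and genes with a count numbered 22689 ± 210.0 and 23363 ± 197, neither overlapping between groups (exact permutation p = 0.1 for each, the smallest that 3 against 3 allows). The part of this shift in the members' differences was not tested. In bulk RNA, a change per cell cannot be told apart from a change in the mix of cells.

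Of the 10 members, NEAT1 and KCNQ1OT1 were called higher with BPAF and 0 were called lower in the fit over all 15361 tested genes (edgeR quasi-likelihood test, Benjamini-Hochberg threshold 0.05). In that fit 935 genes were called, 6.09% of those tested, with 408 (2.66%) higher and 527 (3.43%) lower. All 10 members passed the filter on low counts. Their median log2 fold change was 0.04 against 0.0020 for all tested genes. Above 0 were 9 of 10, against 50.8% of all tested genes and 77.7% of lncRNAs whose log2 CPM averaged 3 or more. In a fit with an offset for each gene's length and GC content, 5 of 10 were above 0. The medians in that fit were 0.01 for the members and -0.03 for all genes. Groups did not overlap in level for 5 members, where 24.8% of all tested genes showed no overlap. Upper quartile scaling gave 459 higher and 395 lower genes, scaling on protein-coding genes 451 and 386, DESeq2 203 and 411, and the length and GC offset 304 and 1035, and each of these fits called 2 members, NEAT1 and KCNQ1OT1. Dropping 1 library changed the total to 328 (BPAF replicate 1), 386 (BPAF replicate 3), 485 (DMSO replicate 1) or 622 (DMSO replicate 3).

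**Figure D1:**
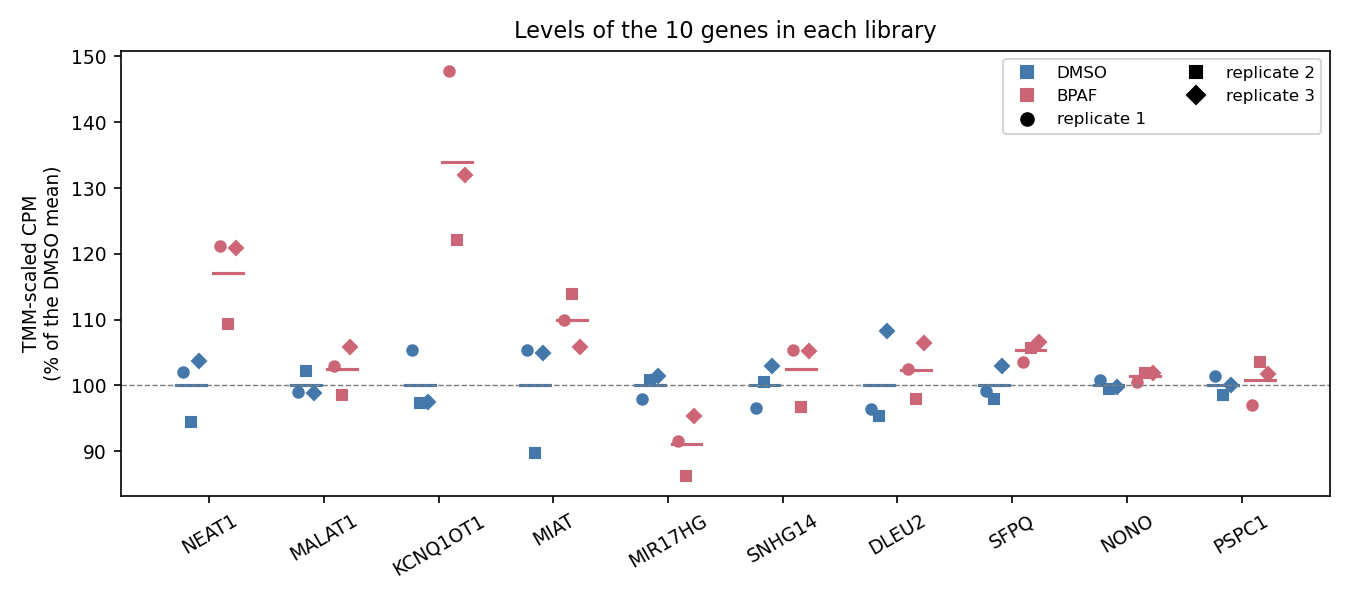
Level of each gene in each library as TMM-scaled CPM, in percent of the DMSO mean. Colours mark the group, marker shapes the replicate number and short lines the group means. KCNQ1OT1 and NEAT1, and by a small margin MIAT and SFPQ, lie above every DMSO library in all 3 BPAF libraries, and MIR17HG lies below. The points of all genes but KCNQ1OT1, NEAT1 and MIR17HG lie between 89.6% (MIAT, DMSO replicate 2) and 114% (MIAT, BPAF replicate 2).

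NEAT1 (ENSG00000245532, chr11:65422774-65445540, plus strand, GENCODE class lincRNA) was higher with BPAF by a modest amount. Its level was 115, 107 and 117 CPM in DMSO replicates 1 to 3 and 137, 124 and 137 CPM in BPAF replicates 1 to 3. Each BPAF library lay above each DMSO library, and the lowest in both groups was replicate 2. The fold was 1.17, a log2 fold change of 0.23 ± 0.04 (SE), and the group means were 113 ± 5.60 and 133 ± 7.70 CPM (SD, n = 3). The count ratio of NEAT1 to its neighbour MALAT1, which needs no scaling between libraries, was 0.196 ± 0.0133 in DMSO and 0.224 ± 0.00668 in BPAF, with no overlap. Both isoforms of NEAT1 share 1 row of the table, so the scaffold form and the short polyadenylated form were not separated. The log2 fold change was 0.19 to 0.27 with 1 library left out and 0.17 with the length and GC offset, and the gene was called in all 16 of these and other fits on counts. It was not called in the limma fits on deposited TPM (0.26), which called 1 to 3 genes in all.

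KCNQ1OT1 (ENSG00000269821, chr11:2608328-2699994, minus strand, class antisense) had the largest difference of the 10. Its level was 23.1, 21.3 and 21.3 CPM in DMSO and 32.4, 26.7 and 28.9 CPM in BPAF. The groups did not overlap, and BPAF replicate 1 stood highest. The fold was 1.34 (log2 fold change 0.42 ± 0.07, SE), from 21.9 ± 1.01 to 29.3 ± 2.84 CPM (SD, n = 3). KCNQ1, the protein-coding gene it crosses on the opposite strand, had 1 count in DMSO replicate 1 and 0 in the other libraries, and CDKN1C, an imprinted growth inhibitor of the same cluster, was at 0.432 ± 0.138 and 0.649 ± 0.121 CPM and was not called; it does not overlap KCNQ1OT1 and was singled out for its role. The annotation of KCNQ1OT1 is a single exon of 91667 bases, so 437 to 698 counts per library came to only 0.30 to 0.50 deposited TPM. KCNQ1OT1 was called in the 16 alternative fits on counts, with 0.35 to 0.48 when 1 library was left out, but its log2 fold change dropped to 0.23 with the length and GC offset. It was too low for the filtered TPM fits. In the unfiltered fit on log2(TPM + 1), a scale that understates low genes, it was 0.14 and not called. Deposited TPM itself averaged 0.313 in DMSO and 0.450 in BPAF with no overlap.

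MALAT1 (ENSG00000251562, chr11:65497688-65506516, plus strand), the most abundant lncRNA of the set, was close to level between groups. It stood at 572, 591 and 571 CPM in DMSO and at 595, 569 and 611 CPM in BPAF. The ranges overlapped, with BPAF replicate 2 the lowest of all 6 libraries. The log2 fold change was 0.03 ± 0.03 (SE), with a 95% interval of the fold from 0.983 to 1.07. All its deposited counts were whole numbers (tolerance 1e-09).

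MIAT (ENSG00000225783, chr22:26646428-26676475, plus strand) was low and gave an imprecise difference. Its level was 11.9, 10.1 and 11.9 CPM in DMSO and 12.4, 12.9 and 12.0 CPM in BPAF. BPAF libraries lay just above the DMSO libraries in CPM, of which replicate 2 was lowest. In deposited TPM the MIAT groups overlapped, at 1.76 to 2.33 in DMSO and 2.20 to 2.80 in BPAF. The log2 fold change was 0.13 ± 0.10 (SE, not called) and became 0.06 without DMSO replicate 2, and 0.25 to 0.34 on the TPM scales. MIATNB, an lncRNA gene that overlaps MIAT exons on the same strand, went from 16.9 ± 1.36 to 19.2 ± 0.502 CPM, not called (0.18 on the log2 scale; adjusted p = 0.203 by edgeR). The counts of MIAT were fractional in each library, and whether reads are shared between the pair was not tested.

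The microRNA hosts MIR17HG and DLEU2 showed small differences that were not called. What they carry is shown as mature sequences from RefSeq (GRCh38.p14), with the seed (bases 2 to 8) in capitals. All 8 mature arms sought were matched, and they fall into 5 seeds. The first 6 lie in MIR17HG, and 2 pairs of them share a seed. The last 2 lie in DLEU2 and share a seed with each other.
miR-17-5p: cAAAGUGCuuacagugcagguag
miR-20a-5p: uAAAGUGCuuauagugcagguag
miR-18a-5p: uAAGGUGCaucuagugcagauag
miR-19a-3p: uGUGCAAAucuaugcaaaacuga
miR-19b-3p: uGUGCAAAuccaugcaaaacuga
miR-92a-3p: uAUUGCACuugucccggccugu
miR-15a-5p: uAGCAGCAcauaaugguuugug
miR-16-5p: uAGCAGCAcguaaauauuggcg
These libraries measure the long host transcripts, not the mature microRNAs. MIR17HG (ENSG00000215417, chr13:91347820-91354579, plus strand), whose cluster promotes lymphoid growth, was the 1 member with a log2 fold change below 0. It was at 21.8, 22.5 and 22.6 CPM in DMSO and at 20.4, 19.2 and 21.3 CPM in BPAF. The groups did not overlap in CPM, with BPAF replicate 2 lowest, and the log2 fold change was -0.13 ± 0.07 (SE). In deposited TPM the MIR17HG groups overlapped, at 29.1 to 34.2 in DMSO and 28.5 to 33.6 in BPAF. DLEU2 (ENSG00000231607, chr13:49982552-50125720, minus strand), from a region often lost in chronic lymphocytic leukemia, was at 57.2, 56.5 and 64.2 CPM in DMSO and 60.8, 58.1 and 63.1 CPM in BPAF. Its groups overlapped fully, DMSO replicate 3 being the highest library, and the log2 fold change of 0.03 ± 0.05 turned to -0.0025 without DMSO replicate 2. With the length and GC offset it was -0.0043, where the median gene was at -0.03. TRIM13 (54.4 ± 3.03 CPM in DMSO, 52.7 ± 2.19 in BPAF), DLEU1 (30.1 ± 1.11 and 28.3 ± 2.08) and KCNRG (1.95 ± 0.390 and 1.98 ± 0.666), which cross DLEU2 on the opposite strand, were not called either.

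SNHG14 (ENSG00000224078, chr15:24978583-25419462, plus strand) was at 142, 147 and 151 CPM in DMSO and 154, 142 and 154 CPM in BPAF. BPAF replicate 2 fell among the DMSO libraries, so the groups overlapped. The log2 fold change was 0.04 ± 0.04 (SE) and turned to -0.09 with the length and GC offset, so its direction depends on that correction. SNRPN, an RNA-binding protein gene with exons that overlap SNHG14 exons on the same strand, was at 108 ± 4.86 and 104 ± 0.996 CPM. UBE3A, the ubiquitin ligase gene that SNHG14 runs antisense to, was at 171 ± 1.87 and 167 ± 6.68 CPM, and neither was called (log2 fold changes -0.06 and -0.03).

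The genes of the paraspeckle proteins differed little between groups, with folds of 1.05, 1.01 and 1.01. SFPQ (ENSG00000116560, chr1:35176378-35193148, minus strand) encodes a splicing factor that paraspeckles hold away from its targets. Its level was 797, 786 and 828 CPM in DMSO and 832, 849.7 and 857 CPM in BPAF. The lowest BPAF library lay just above the highest DMSO library, and the log2 fold change was 0.07 ± 0.03 (SE), a fold of 1.05 that was not called. NONO (ENSG00000147140, chrX:71283192-71301168, plus strand), which pairs with SFPQ, was at 829.8, 819 and 821 CPM in DMSO and 827, 839 and 839 CPM in BPAF. This was the narrowest spread of the set, with an SD of 0.709% of the mean in DMSO and 0.819% in BPAF, and the ranges overlapped (log2 fold change 0.02 ± 0.03). PSPC1 (ENSG00000121390, chr13:19674752-19783019, minus strand), the scarcest of these proteins' transcripts, was at 70.1, 68.1 and 69.2 CPM in DMSO and 67.1, 71.6 and 70.3 CPM in BPAF. Both the lowest and the highest library were BPAF libraries, and its log2 fold change was 0.01 ± 0.04. The 95% intervals of the fold were 1.01 to 1.09 for SFPQ, 0.979 to 1.05 for NONO and 0.950 to 1.07 for PSPC1. They describe precision only and are not adjusted for the number of genes, so that of SFPQ is no test. With the length and GC offset the log2 fold changes of NONO and PSPC1 turned to -0.02 and -0.02. The median gene of that fit was lower still, at -0.03. The log2 fold change of PSPC1 was also below 0 without DMSO replicate 2 (-0.0037) or BPAF replicate 2 (-0.0098).

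**Figure D2:**
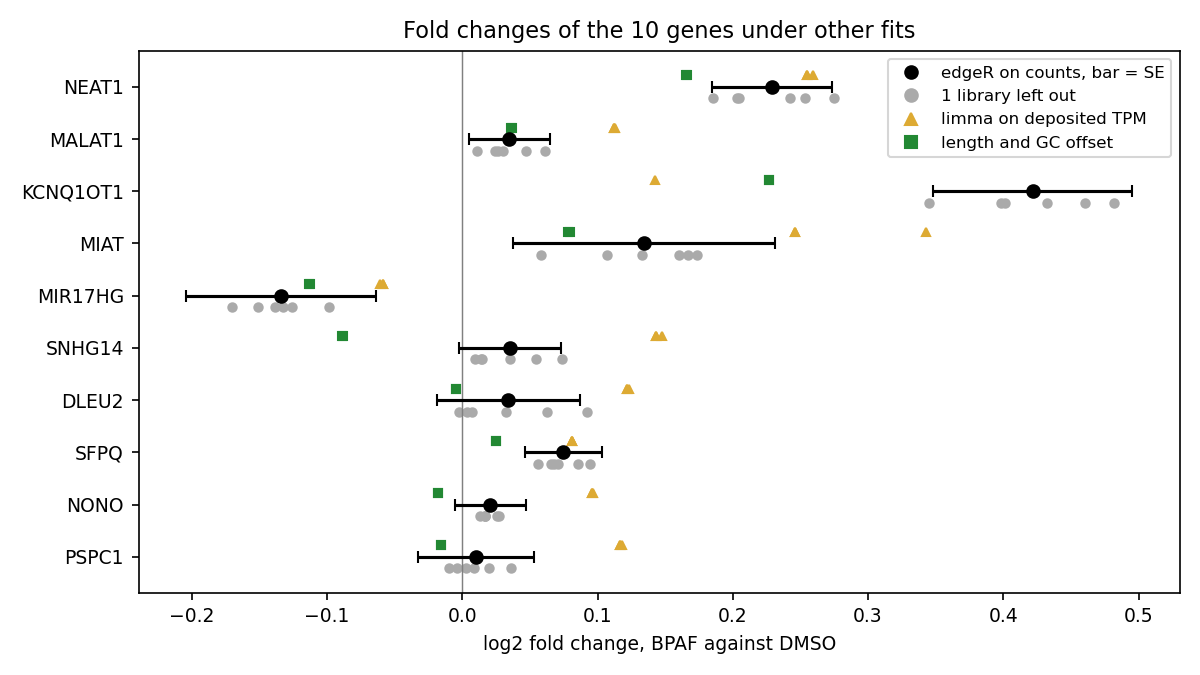
Log2 fold change of each gene, BPAF against DMSO, on the horizontal axis. Black points are edgeR on counts with bars of 1 SE, grey points the 6 fits with 1 library left out, triangles limma on deposited TPM and squares the fits with a length and GC offset; NEAT1 stays between 0.17 and 0.27, and KCNQ1OT1 drops from 0.42 to 0.23 with the offset and to 0.14 on log2(TPM + 1).

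Per length, the 10 genes covered a wide range of deposited TPM. Over all 6 libraries SFPQ averaged 509.5 TPM, NONO 482 and MALAT1 326, and each lay above 97.3% of tested genes or more. DLEU2 (61.1 TPM), PSPC1 (51.6) and then NEAT1 followed, with DMSO means of 58.5 ± 2.57, 49.5 ± 2.01 and 45.4 ± 1.67 TPM (SD, n = 3). The BPAF means of PSPC1 and NEAT1 were 53.7 ± 0.511 and 54.6 ± 5.32 TPM, so these neighbours did not differ beyond their spread there. MIR17HG averaged 31.2 TPM and SNHG14 27.2, while MIAT (2.25) and KCNQ1OT1 (0.382) were far lower. Among 1922 tested lncRNAs, MALAT1 ranked 4, DLEU2 32, NEAT1 40, MIR17HG 68, SNHG14 81, MIAT 888 and KCNQ1OT1 1799 by mean TPM.

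**Figure D3:**
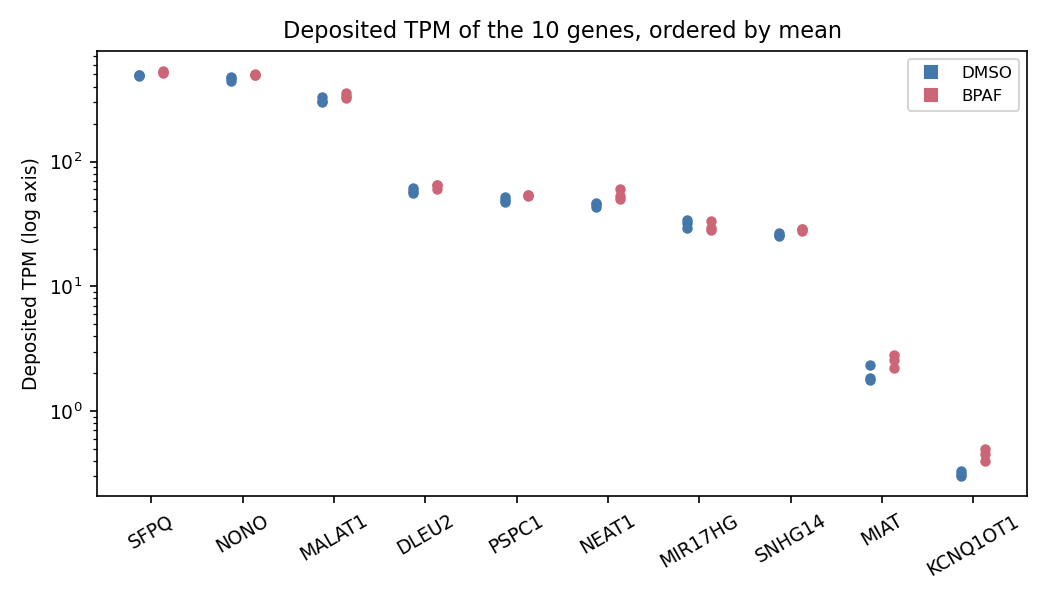
Deposited TPM (log axis) of each gene in each library, genes ordered by their mean over all 6. Points to the left of each tick are DMSO and to the right BPAF; SFPQ averages 509.5 and NONO 482 TPM, and KCNQ1OT1 lies under 1 TPM.

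The deposited TPM values and the counts did not stand in a fixed ratio for each gene. The ratio of count to TPM, taken relative to the median gene of each library, is by the definition of TPM proportional to the length used for a gene. For SFPQ it was 0.913 ± 0.00821 in DMSO and 0.969 ± 0.00722 in BPAF, 6.17% higher in BPAF with no overlap between groups. The ratio was higher in each BPAF library for 15.3% of 11601 well-counted genes, and for the other 9 members the groups overlapped. SFPQ also had whole counts in each DMSO library and fractional counts in each BPAF library, as did 0.457% of those genes. For MIAT the ratio ran from 2.60 to 3.84 across libraries, whereas for KCNQ1OT1 the highest was 1.02 times the lowest. In deposited TPM the groups did not overlap for 6 members, all higher in BPAF, where 21.0% of tested genes were higher in each BPAF library.

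As a class, lncRNAs leaned upward, which sets the scale for the members. Among 1922 tested lncRNAs, 104 (5.41%) were called higher and 11 (0.572%) lower, with a median log2 fold change of 0.17, or 0.12 with the length and GC offset. Among the 349 whose log2 CPM averaged 3 or more, as it did for each member, 66 (18.9%) were called higher and the median was 0.12. Of the 7 lncRNA members, NEAT1, KCNQ1OT1 and MIAT had log2 fold changes above that value, and MALAT1, SNHG14, DLEU2 and MIR17HG had values below it. Of the 67 tested lncRNAs with a run of at least 20 A, 10 (14.9%) were called higher. The members NEAT1, KCNQ1OT1 and MIAT are among the 67, and NEAT1 and KCNQ1OT1 are among the 10. This share is therefore no independent background for them, and a link between such runs and the calls was not tested. The 1922 and 349 lncRNAs also include the 7 lncRNA members. The number of lncRNAs called higher dropped to 41, 47 and 69 when BPAF replicate 1, BPAF replicate 3 or DMSO replicate 1 was omitted.

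**Figure D4:**
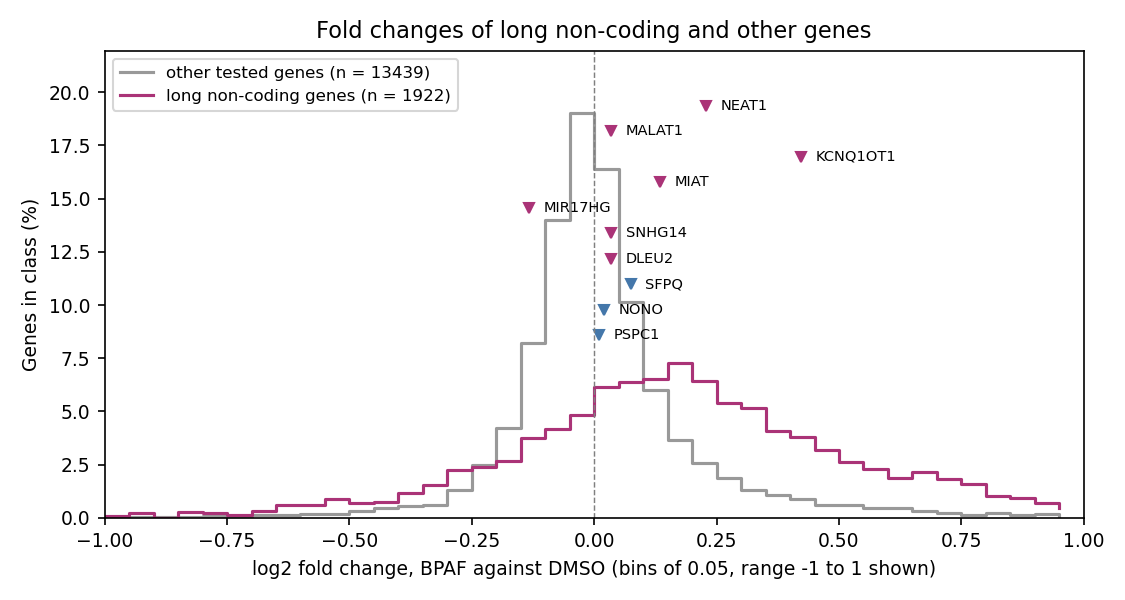
Share of genes by log2 fold change, BPAF against DMSO, in bins of 0.05 for lncRNAs and for all other tested genes. Triangles give the fold change of each member on the horizontal axis only, their height has no meaning; the lncRNA curve is centred to the right, with a median of 0.17, and MALAT1, SNHG14 and DLEU2 lie near 0.03.

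Of 43 tested genes for other proteins of paraspeckles, 0 rose and ZNF24 and HNRNPA1 fell, 4.65% of the list against 6.09% of all tested genes, and the median log2 fold change was -0.01 against 0.0020. ZNF24, a zinc finger transcription factor, fell from 156 ± 4.66 to 139.5 ± 1.47 CPM (SD over 3 libraries; log2 scale -0.16 ± 0.03, adjusted p = 0.00700 by edgeR), and passed in all 6 fits with 1 library left out. HNRNPA1, a splicing repressor with many near-identical pseudogenes, fell from 2607 ± 129 to 2406 ± 24.0 CPM (-0.12 ± 0.03, edgeR adjusted p = 0.0346). Whether reads shared with these pseudogenes affect its count was not tested. HNRNPA1 passed without DMSO replicate 2 and in none of the fits without any other single library (adjusted p from 0.0781 to 0.177), nor with upper quartile scaling (0.0588) or scaling on protein-coding genes (0.0614). On the TPM scale its log2 fold change was 0.04, below the median gene, which was at 0.078 with log2(TPM + 1). The cleavage factor genes NUDT21 and CPSF6, which favour the short form of NEAT1, had values of -0.09 and 0.09 (edgeR adjusted p = 0.0586 and 0.0834), and HNRNPK, which favours the long form, had -0.08 (0.111). These 3 were singled out for their known roles after their values were seen.

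Nuclear speckles, where MALAT1 resides, were represented by 26 tested protein genes. Of these, 1 rose and 4 fell, 19.2% against 6.09% of all tested genes, with a median log2 fold change of -0.03. The 6.09% covers genes at all levels and is not matched to the levels of these 26. Among lncRNAs the share called in either direction was 5.98% of all tested, and 21.8% where log2 CPM averaged 3 or more. Whether the speckle share exceeds that of genes at like levels was not tested. SRRM2, a scaffold of speckles, rose from 853 ± 18.7 to 916 ± 3.31 CPM (0.10 ± 0.03, edgeR adjusted p = 0.0274). ERH, a small RNA-processing factor, fell from 296 ± 15.9 to 265 ± 4.38 CPM (-0.16 ± 0.03, edgeR adjusted p = 0.0103). CDC5L (-0.14), RBM39 (-0.11) and SF3B1 (-0.10), all splicing factors, fell with edgeR adjusted p of 0.0286, 0.0238 and 0.0323. ERH lost its call without BPAF replicate 3 (adjusted p = 0.0542), CDC5L (0.0520 to 0.109) and RBM39 (0.0508 to 0.145) without DMSO replicate 1, DMSO replicate 3, BPAF replicate 1 or BPAF replicate 3, SRRM2 without any library but DMSO replicate 2 (0.0565 to 0.149) and SF3B1 without any but DMSO replicate 3 (0.0724 to 0.151). On the TPM scale SF3B1 (0.16) and RBM39 (0.01) had the opposite sign. The median gene was itself at 0.078 with log2(TPM + 1), so RBM39 stayed below it and SF3B1 did not. CDC5L was not called in DESeq2 (adjusted p = 0.0630), and SRRM2 was not called with the length and GC offset (0.211). SF3B1 was not called with upper quartile scaling (0.0588) or scaling on protein-coding genes (0.0589).

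Among genes that degrade or trim nuclear RNA, 1 of 28 tested rose and 1 fell (7.14%; median -0.03). ZFC3H1, a scaffold that links polyadenylated nuclear RNA to the exosome, rose from 92.7 ± 3.55 to 107 ± 5.95 CPM (0.21 ± 0.04, edgeR adjusted p = 0.00665). C1D, a cofactor of the nuclear exosome, fell from 25.0 ± 0.617 to 20.6 ± 0.385 CPM (-0.28 ± 0.07, edgeR adjusted p = 0.0161). Both lost their calls without BPAF replicate 1 or BPAF replicate 3, and ZFC3H1 also without DMSO replicate 1 (0.0505 to 0.0539) and C1D without DMSO replicate 3 (0.0537 to 0.0634) and in DESeq2 (adjusted p = 0.0619).

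Other well-known lncRNAs and microRNA hosts gave 3 rises and 0 falls among 34 tested (8.82% against 6.09% of all tested genes, median log2 fold change 0.02). Of all 1922 tested lncRNAs, 5.41% were called higher and the median was 0.17. Where log2 CPM averaged 3 or more, 18.9% were called higher and the median was 0.12. The median of the list thus lay below that of its class. Of the 34, 7 had an unadjusted edgeR p under 0.05, as had 3052 of all 15361 tested genes. The same count was 10 of 43 in the paraspeckle list, 11 of 26 in the speckle list and 7 of 28 in the turnover list. MIR181A1HG, host of microRNAs that tune T-cell receptor sensitivity, rose from 23.8 ± 0.530 to 31.0 ± 2.38 CPM (SD over 3 libraries; log2 scale 0.38 ± 0.07, adjusted p = 0.00227 by edgeR). FTX, an lncRNA of the X-inactivation centre, rose from 61.5 ± 5.38 to 75.1 ± 3.77 CPM (0.29 ± 0.06, edgeR adjusted p = 0.00721), and MIR503HG from 6.20 ± 1.03 to 8.83 ± 1.26 CPM (0.51 ± 0.14, edgeR adjusted p = 0.0346). MIR181A1HG passed in all 6 fits with 1 library left out, FTX lost its call without BPAF replicate 1 (0.0511) or BPAF replicate 3 (0.0534), and MIR503HG without DMSO replicate 1, DMSO replicate 3, BPAF replicate 1 or BPAF replicate 3 (0.0734 to 0.199), in DESeq2 (adjusted p = 0.0889) and with the length and GC offset (0.0607). The values of MIR181A1HG and FTX lie between those of NEAT1 (0.23) and KCNQ1OT1 (0.42).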

How the data were processed

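Polyadenylated RNA was read as stranded paired-end libraries, per the labels' protocols. FastQC, cutadapt, HISAT2, featureCounts and the builds GRCh38 and hg38 stand in the submitters' processing notes, without versions or roles. The deposited counts are estimated counts per gene with decimals (59.1% to 61.7% of values above 0 were whole), and the deposited TPM values sum to the same total per library, and the sources used here do not say how either arose. The 192 rows without a gene identifier (0.243% to 0.271% of counts) were left out. Symbols were found for 42028 identifiers, and 58396 were in GENCODE release 29.

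After rounding, a filterByExpr step and TMM scaling, counts were fitted in R 4.3.3 with edgeR 4.0.16 and its quasi-likelihood test (robust, no covariate), with Benjamini-Hochberg adjustment over 15361 genes. The SE is the size of the log2 fold change divided by the square root of F. The 95% intervals are 1.96 SE to each side, with no adjustment for the number of genes or the few libraries. DESeq2 1.42.0 and limma 3.58.1 were alternatives, and the TPM fits used log2(TPM + 1 or 0.1). On simulated counts with 200 changed genes, 66% of 1.2-fold and 97.5% of 1.5-fold changes were recovered. The simulation gave every gene the same spread beyond sampling noise and changed only genes above a count floor. Recovery for real genes with a wider spread or fewer counts was not tested. Each member was named whatever its value; in each of 4 further lists the called genes (up to 6 by p) were named, and so were genes from a list of known neighbours that overlap a member. Members and lists were chosen with earlier results of these data known. The design text calls the libraries biological replicates, and pairs within a group differed by more than sampling noise (chi-square over its degrees of freedom, 2.36 to 4.15).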

Additional observations from a re-analysis of the deposited data

How the results depend on the processing

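The calls of NEAT1 and KCNQ1OT1 were kept in all 16 alternative fits on counts. With limma on log2(TPM + 1), log2(TPM + 0.1) and log2(TPM + 1) without a filter, 0, 0 and 0 of 9, 9 and 10 tested members were called. KCNQ1OT1 fell under the TPM filter and was tested only in the last of these. They called 1, 1 and 3 genes in all and 0, 0 and 0 genes in each of the 4 lists, while 2307, 2231 and 3101 genes had an unadjusted limma p under 0.05. DESeq2 called 614 genes in all and 1 nuclear RNA turnover gene. The other paraspeckle list had 1 call with upper quartile scaling, 1 with protein-coding scaling, 6 with the length and GC offset and 7 with that offset and the replicate block. Leaving out 1 library gave 328 to 861 genes in all, 2 to 2 members, and 1 to 2 paraspeckle, 0 to 4 speckle, 1 to 4 lncRNA and 0 to 2 turnover genes.

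Replicate numbers did not pair the libraries: deviations from the group means correlated at 0.0060, -0.03 and 0.03 for numbers 1, 2 and 3. With the replicate block 830 genes, the same 2 members and 3 rather than 5 speckle genes were called; SRRM2 (0.0534) and SF3B1 (0.0600) did not pass.

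With the length and GC offset, alone and with the block, log2 fold changes turned to -0.088 and -0.089 for SNHG14, -0.0043 and -0.0047 for DLEU2, -0.018 and -0.018 for NONO, and -0.015 and -0.016 for PSPC1. The median gene was at -0.030 and -0.030 in these fits, so SNHG14 lay below it and DLEU2, NONO and PSPC1 above it. Without 1 library they reached -0.0025 to 0.092 for DLEU2 and -0.0098 to 0.036 for PSPC1. With the TPM fits HNRNPA1 was at 0.041, 0.041 and 0.041, RBM39 at 0.012, 0.012 and 0.012 and SF3B1 at 0.16, 0.16 and 0.16. The median gene was at 0.078, 0.085 and 0.044 in these TPM fits, against 0.0020 in the main fit. The cause of these changes was not tested. MIAT, with 208 to 274 counts per library, had the widest SE of the members (0.10).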
